A study of Mus musculus with 75 samples.

Results

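The matrix-binding integrins described here were 10 genes for subunits of integrin receptors, *Itgav*, *Itgb1*, *Itgb3*, *Itgb5*, *Itgb6*, *Itgb8*, *Itga1*, *Itga5*, *Itga8* and *Itga11*. They were taken by symbol from a table of read counts for 55536 mouse genes, and all 10 were among the 16221 genes with enough counts to be tested. RNA had been extracted from the inferior right lobe of 75 male C57BL/6JRj mice, 1 library per mouse, so replicates were separate animals. BLEO-IPF mice were given, once and by the intratracheal route, bleomycin (BLEO), a cytostatic drug that injures the alveolar epithelium and is used to model idiopathic pulmonary fibrosis (IPF). They were killed on day 7 (n = 10), days 14, 21, 28 and 35 (n = 12 each) or day 42 (n = 7). The authors report mortality among BLEO-IPF mice, so later groups hold only mice that lived to that day. The 10 control mice (CTRL) are given as saline in the sample labels, while the treatment protocol calls the controls untreated. Mice were 12 to 14 weeks old at instillation, and entry into the study after BLEO required a body weight loss that was mild to moderate within the first week, so mice with little or severe weight loss are not represented.

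Integrins are heterodimers of an α and a β subunit that span the plasma membrane, bind extracellular matrix proteins outside the cell and connect through adaptor proteins to the actin cytoskeleton inside it. The αv subunit pairs with several β subunits to bind proteins with an RGD motif, and αvβ6 and αvβ8 are known for activating latent TGFβ, the main profibrotic cytokine of the lung. Subunits α1 and α11 form collagen receptors, α5 the fibronectin receptor and α8 the nephronectin receptor, each with β1 as partner.

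In the lungs of BLEO-IPF mice, 8 of the 10 integrin genes rose and 2 fell, and *Itgb6* and *Itga8* were the pair that still differed from CTRL on day 42. A gene was called a differentially expressed gene (DEG) at an adjusted p under 0.05 in edgeR's quasi-likelihood test over all genes, and a log2 fold change (log2FC) is the fitted difference between groups on the log2 scale. On day 7, *Itgav*, *Itgb6*, *Itgb8* and *Itga5* were upregulated and *Itga1* and *Itga8* downregulated, 6 of 10. Over all genes tested that day, 45.8% were DEGs, 24.8% upregulated and 21% downregulated. All 10 were DEGs on days 14, 21 and 28, with 8 upregulated and 2 downregulated each time. On day 14, 62.4% of all genes were DEGs (32.4% upregulated, 29.9% downregulated), on day 21 54.2% (28.3% and 25.8%) and on day 28 43.3% (24.1% and 19.2%). Day 35 left 4 upregulated and 2 downregulated, when 29.9% of all genes were DEGs (16.9% and 13.1%), and day 42 left 1 upregulated and 1 downregulated, when 24.7% were (13.7% and 11%). The share of DEGs among the 10 was thus near that of all genes on days 7 and 42 and above it from day 14 to day 35. In a fit of the day 42 and CTRL mice alone, which does not borrow the spread of the other groups, 7 of the 10 were DEGs on day 42 (39.8% of all genes in that fit), the additional ones being *Itgav*, *Itgb5*, *Itgb8*, *Itga1* and *Itga5*.

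The size of the differences followed the same course. The median absolute log2FC of the 10 genes against CTRL was 0.48, 0.94, 0.66, 0.60, 0.34 and 0.24 at the 6 time points in order of day. Over all genes tested the corresponding medians were 0.24, 0.31, 0.26, 0.20, 0.16 and 0.18. All 6 of these comparisons share the same 10 CTRL mice, so they are not independent of each other. In RNA from a whole lobe, fewer cells of a type and less RNA per cell cannot be told apart.

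**Figure D1:**
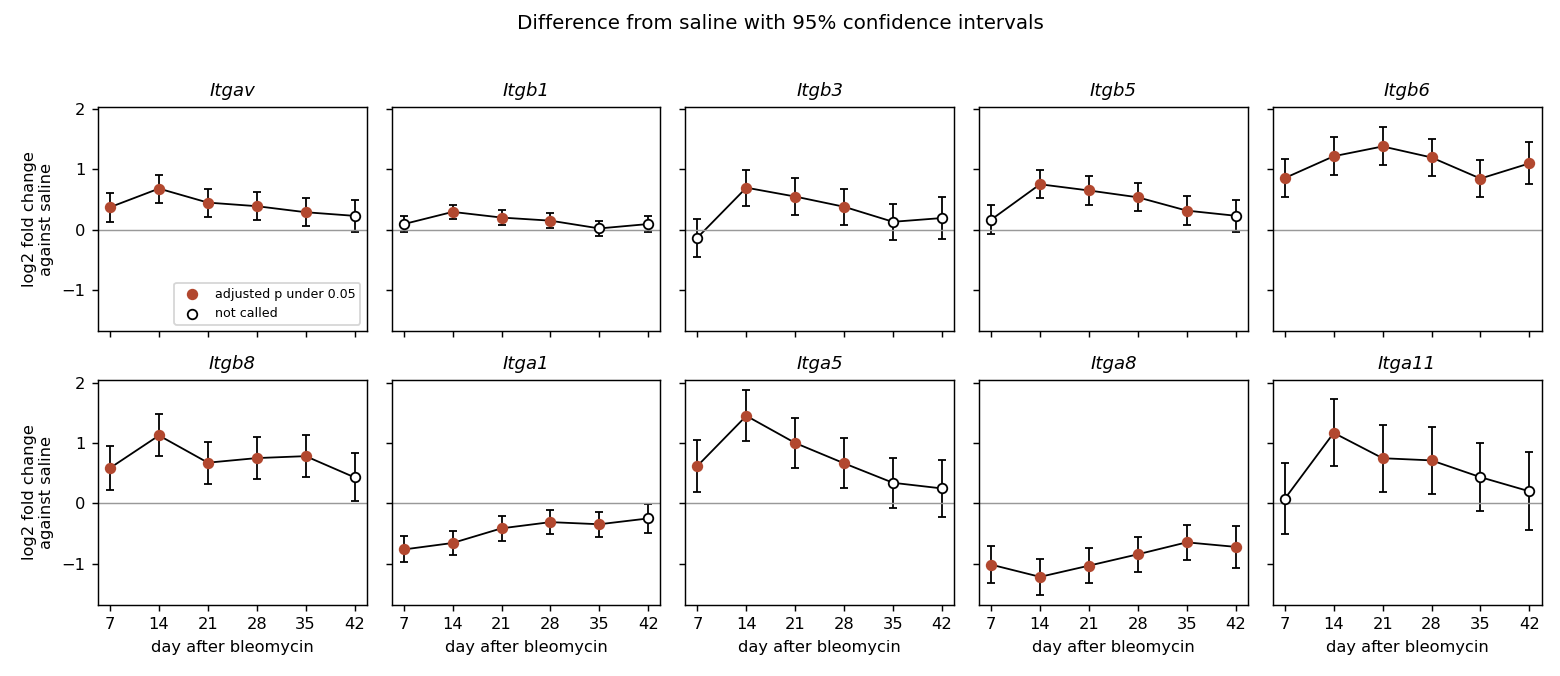
Fitted log2 fold change against saline (y axis) for each of the 10 integrin genes by day after bleomycin (x axis). Bars are 95% confidence intervals, filled points are DEGs and open points are not. *Itga1* and *Itga8* lie below 0 on every day, *Itgb6* lies between 0.85 and 1.38, and the other rising genes are highest on day 14.

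*Itgb6*, whose product is found mainly on epithelial cells, was the member with the most lasting increase. Its level in CTRL mice, in CPM, the counts scaled to a common library size, ran from 26.04 to 54.96 with a median of 39.1. On day 7 it was 53.4 to 101 (median 70.9), on day 14 51.6 to 113 (median 99.97) and on day 21 72.7 to 132 (median 106). All 12 mice on day 21 thus lay above all CTRL mice, whereas 1 mouse each on days 7 and 14 lay within the CTRL range. The spread was widest on day 28, when values ran from 49.6 to 176 with a median of 82.3 and 10 of 12 mice were above all CTRL mice. Day 35 gave 44.2 to 110 (median 69.96) and day 42 68.8 to 121 (median 78.5), and all 7 mice of day 42 again stood above CTRL. The fitted log2FC for day 7 was 0.86 ± 0.16 (standard error, SE). It reached 1.38 ± 0.16 on day 21, and for day 42 it was 1.10 ± 0.17 with an edgeR adjusted p of 1.96e-06. Between day 14 and day 42 the difference was -0.12 (95% confidence interval -0.45 to 0.22), which was not significant in edgeR (adjusted p = 0.616).

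*Itga8*, which in the lung is known as a marker of alveolar fibroblasts, showed the most lasting decrease. CTRL mice had 429 to 499.8 CPM (median 460.3). The level was 156 to 311 CPM on day 7 (median 218), 111 to 280 on day 14 (median 209) and 110 to 335 on day 21 (median 225). It was 151 to 360 CPM on day 28, 204 to 349 on day 35 and 243 to 327 on day 42. On all 6 days, every BLEO-IPF mouse was below every CTRL mouse, the only member for which this held. Over all genes tested, 3.44% to 15.6% had no overlap with CTRL on a single day, in either direction. The share with no overlap on all 6 days was not counted. The log2FC was -1.01 ± 0.15 on day 7, -1.21 ± 0.15 on day 14 and -0.72 ± 0.17 on day 42 (edgeR adjusted p = 0.00128). From day 14 to day 42 the level rose by a log2FC of 0.50 (95% confidence interval 0.17 to 0.82, edgeR adjusted p = 0.013), a partial return. Reads of *Itga8* overlap 372 exon bases with an antisense gene, whose counts over all mice amounted to 1.14% of those of *Itga8*.

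The proximal promoters of these genes, and of *Itga5*, whose log2FC exceeded 1 on day 14 and was 0.34 on day 35, are printed because *Itgb6* and *Itga8* were the pair called on every day, in opposite directions. The share of all genes called on every day was not counted here. The authors report that a relatively large part of their DEGs stayed significant throughout the study, so lasting calls were not particular to this pair. Each line gives the 250 bases before a transcription start in RefSeq on GRCm38.p6, read 5′ to 3′ on the strand of the gene, with the SMAD motif CAGAC on either strand in capitals. *Itgb6* is on the minus strand (chr2:60722604-60722853), as are *Itga8* (chr2:12301945-12302194) and *Itga5* (chr15:103366792-103367041).
*Itgb6*: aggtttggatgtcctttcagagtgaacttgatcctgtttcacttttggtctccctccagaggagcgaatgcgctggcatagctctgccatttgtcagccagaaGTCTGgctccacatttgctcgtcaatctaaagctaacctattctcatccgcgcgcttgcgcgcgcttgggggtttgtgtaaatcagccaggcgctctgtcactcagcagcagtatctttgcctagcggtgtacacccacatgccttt
*Itga8*: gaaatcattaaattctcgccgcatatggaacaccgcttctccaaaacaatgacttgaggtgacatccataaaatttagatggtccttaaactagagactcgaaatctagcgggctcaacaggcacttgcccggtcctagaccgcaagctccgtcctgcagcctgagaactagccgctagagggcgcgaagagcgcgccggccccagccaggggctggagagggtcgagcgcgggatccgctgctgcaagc
*Itga5*: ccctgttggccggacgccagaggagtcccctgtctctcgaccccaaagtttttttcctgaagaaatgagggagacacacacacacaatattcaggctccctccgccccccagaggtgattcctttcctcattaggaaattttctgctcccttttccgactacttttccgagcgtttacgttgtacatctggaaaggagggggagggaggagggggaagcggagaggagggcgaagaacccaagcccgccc
The *Itgb6* promoter held 1 SMAD motif and those of *Itga8* and *Itga5* none. RefSeq entries were matched for 9 of the 10 genes, and 4 of the 9 had the SMAD motif in this window, *Itgb1*, *Itgb6*, *Itgb8* and *Itga1*, which rose except for *Itga1*. The motif was present in 42.19% of the 32851 promoters of the table. The TEAD motif GGAATG was found in the promoter of *Itgb1* alone (12.64% of all promoters), and the AP-1 motif TGANTCA in 0 of the 9 (6.75% of all). A further *Itgb6* start in the table held none of the 3 motifs. The RefSeq starts did not always match the genes as annotated for the counts. Those of *Itga8* and *Itga5* lay upstream of the annotated genes. The printed *Itgb6* window and that of *Itga11* overlapped their annotated genes, and that of *Itgb8* lay inside its gene. Promoter activity was not measured in these mice.

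The αv subunit gene *Itgav*, the shared partner of the β3, β5, β6 and β8 subunits, was upregulated from day 7 to day 35. Values were 80.5 to 97.7 CPM in CTRL mice (median 89.9), 90.9 to 251 on day 14 (median 129) and 80.7 to 128 on day 42 (median 104). On day 14, 11 of 12 mice were above all CTRL mice, and on day 42 this was true of 4 of 7. The log2FC fell from 0.68 ± 0.12 on day 14 to 0.29 ± 0.12 on day 35 and 0.23 ± 0.13 on day 42, when it no longer passed the test (edgeR adjusted p = 0.192). The decline from day 14 to day 42 was itself significant, at -0.45 ± 0.13 (edgeR adjusted p = 0.00477).

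*Itgb5*, which encodes the vitronectin-binding partner of αv, was a DEG from day 14 to day 35. It was 145 to 164 CPM in CTRL mice and 136 to 208 CPM on day 7, a log2FC of 0.17 ± 0.12 that did not pass the test (edgeR adjusted p = 0.254) but did in a fit of the day 7 and CTRL mice alone (edgeR adjusted p = 0.027). On day 14 it was 199 to 359 CPM (median 248) and on day 21 180 to 359 (median 231), so that every mouse of both days was above CTRL. For days 14, 21, 28 and 35 the log2FC was 0.76, 0.65, 0.54 and 0.32, each with an SE of 0.12. On day 35 all 12 mice still exceeded the CTRL mice, with a lowest value of 168 CPM. By day 42 the range was 162 to 224 CPM, and the log2FC of 0.23 ± 0.13 was not significant.

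*Itgb3*, a subunit of the vitronectin receptor αvβ3 that is also abundant in platelets, was not a DEG on day 7, at 27.9 to 41.5 CPM against 31.4 to 47.4 in CTRL mice. It then rose to 43.9 to 98.4 CPM on day 14 (median 60.1) and 35.6 to 99.7 on day 21 (median 48.4). The increase from day 7 to day 14 was 0.83 ± 0.15 on the log2 scale (edgeR adjusted p = 9.45e-05). Against CTRL the log2FC of days 14 and 21 was 0.70 and 0.55, and by day 35 it was 0.13 and not significant, each with an SE of 0.15. Platelet markers, 6 of which were tested, had 5 downregulated on day 14 (29.9% of all genes) and 3 on day 21 (25.8%). On day 14 their sum had a median of 34.9 CPM (28.8 to 46.4) against 52.4 CPM (36.3 to 74.3) in CTRL mice. The part of platelets in the differences of *Itgb3* was not tested.

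*Itgb8* encodes the other TGFβ-activating partner of αv and was among the least abundant members, with 29 to 172 counts per library, so each of its values carries more counting error. CTRL mice had 2.31 to 4.73 CPM (median 3.93). On day 14 all 12 mice were above them, at 5.91 to 14.4 CPM (median 7.14), a log2FC of 1.12 ± 0.17. The log2FC stayed between 0.67 and 0.78 from day 21 to day 35, with 10 or 11 of 12 mice above all CTRL mice each day. On day 42 the range was 3.03 to 6.94 CPM, and a log2FC of 0.43 ± 0.20 did not pass the test (edgeR adjusted p = 0.103).

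*Itgb1*, the common partner of α1, α5, α8 and α11 and the most abundant member, had the smallest log2FC of the rising genes on day 14. It ran from 1066 to 1212 CPM in CTRL mice and from 1212 to 1724 on day 14 (median 1328), when all 12 mice were above the highest CTRL mouse, the closest by under 1 CPM. For days 14, 21 and 28 the log2FC was 0.30, 0.20 and 0.15, and for day 35, when it was not a DEG, 0.02, each with an SE of 0.06. Day 42 gave 1115 to 1307 CPM and a log2FC of 0.10 ± 0.07, not significant.

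**Figure D2:**
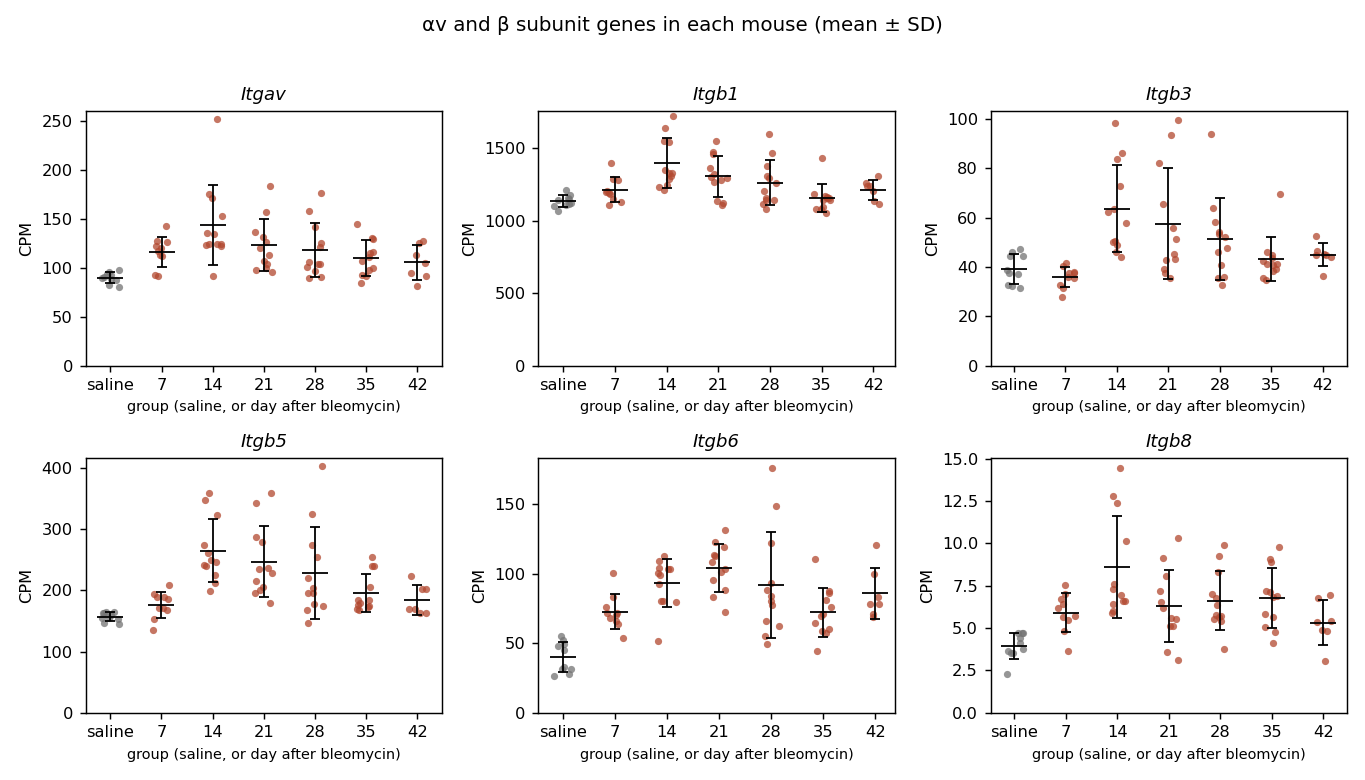
CPM (y axis, from 0) of *Itgav* and the 5 β subunit genes in each mouse, by group (x axis: saline, then day after bleomycin). Points are mice, and the horizontal bar with whiskers is the mean ± SD. *Itgb6* stays above saline on day 42, at 68.8 to 121 CPM, while the day 42 mice of the other 5 genes overlap saline.

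*Itga5*, which pairs with β1 as the fibronectin receptor, had a log2FC of 1.45 ± 0.21 on day 14, a value above that of the other members that rested on 1 mouse. CTRL mice had 54.4 to 81.4 CPM (median 68.4), and levels reached 71.6 to 130 on day 7 (median 109). On day 14 they spread from 99.5 to 446 CPM with a median of 133, and all 12 mice exceeded CTRL. The highest value was that of replicate 8, without which the log2FC was 1.26, below the 1.28 of *Itgb6* on that day in the same fit, and *Itga5* remained a DEG. The log2FC was 1.00 ± 0.21 on day 21 and 0.66 ± 0.21 on day 28. By day 35 it was 0.34 ± 0.21 and no longer significant (edgeR adjusted p = 0.213), although it was in a fit of the day 35 and CTRL mice alone (log2FC 0.35, edgeR adjusted p = 0.00181). On day 42 the mice spanned 71.97 to 88.8 CPM. The difference between day 42 and day 14 was -1.20 ± 0.24 (edgeR adjusted p = 6.47e-05), the largest such difference among the 10.

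*Itga11*, the collagen receptor subunit known from fibroblasts, had the fewest reads of the members, 11 to 100 counts per library. Its range was 1.24 to 2.67 CPM in CTRL mice and 1.58 to 2.58 on day 7, with no mouse of day 7 above all CTRL mice. On day 14 it was 2.13 to 9.04 CPM (median 3.84), and 8 of 12 mice were above CTRL. The increase from day 7 to day 14 was 1.09 ± 0.28 (edgeR adjusted p = 0.00387), the largest of any member over that week. Against CTRL the log2FC was 1.17 ± 0.28 on day 14, 0.75 ± 0.28 on day 21 and 0.71 ± 0.28 on day 28. On days 35 and 42 it was 0.44 ± 0.28 and 0.20 ± 0.33, neither significant, and the mice of day 42 ranged from 0.95 to 3.67 CPM. The day 21 call rested on replicate 10 of that day, at 7.49 CPM, without which the edgeR adjusted p was 0.0784.

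*Itga1*, which forms the collagen IV and collagen I receptor α1β1 and is found on mesenchymal and endothelial cells among others, was downregulated from day 7 to day 35. CTRL mice had 365 to 488 CPM (median 408). On day 7 all 10 mice were below them, at 159 to 360 CPM (median 242), the largest drop of this gene, with a log2FC of -0.76 ± 0.11. On day 14 the range was 173 to 422 CPM (median 272) and the log2FC -0.65 ± 0.10. From then on it lay closer to CTRL, at -0.41 ± 0.10 on day 21, -0.31 ± 0.10 on day 28 and -0.34 ± 0.10 on day 35. With only replicates 1 to 7 of each group, the calls of days 28 and 35 were lost (edgeR adjusted p = 0.0845 and 0.0843). On day 42, 3 of 7 mice were below all CTRL mice, and -0.25 ± 0.12 was not significant (edgeR adjusted p = 0.117). A gene that overlaps *Itga1* on its own strand and shares 685 exon bases with it had counts equal to 0.215% of those of *Itga1*.

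**Figure D3:**
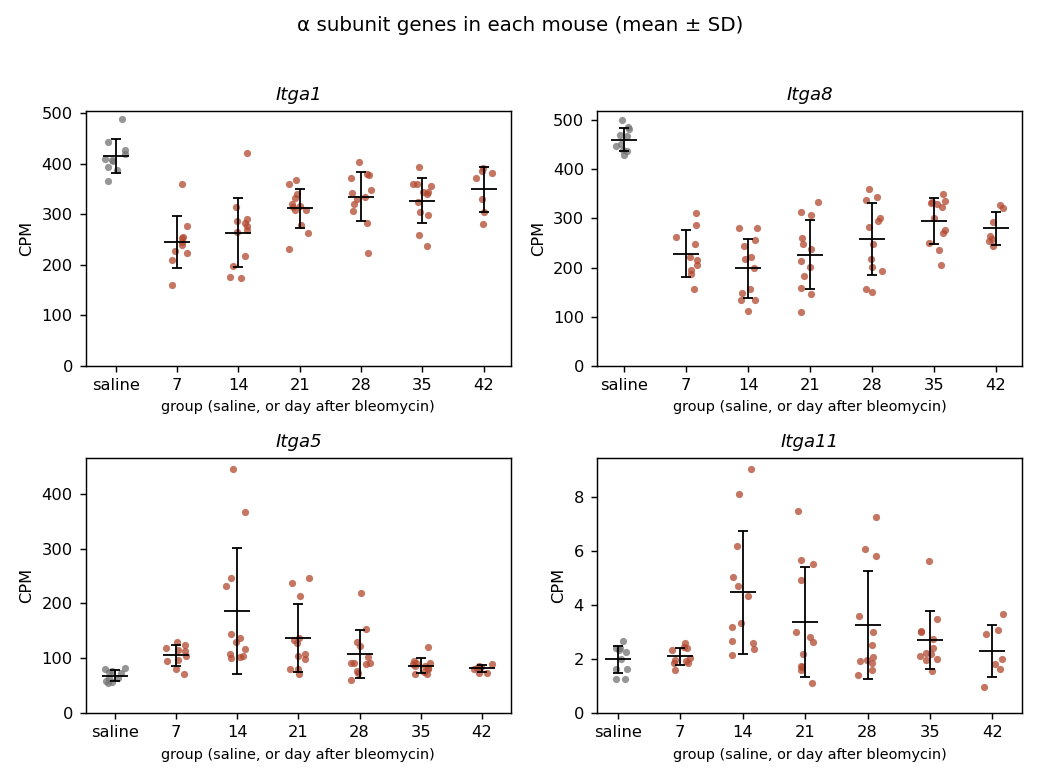
CPM (y axis, from 0) of the 4 α subunit genes other than *Itgav* in each mouse, by group (x axis: saline, then day after bleomycin). Points are mice, and the bar with whiskers is the mean ± SD. *Itga8* shows no overlap with saline on any day, and *Itga5* on day 14 spreads from 99.5 to 446 CPM.

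Separation of the individual mice was counted as well. The genes with no overlap between BLEO-IPF and CTRL mice were *Itga1* and *Itga8* on day 7 (2 of 10, with 11.2% of all genes tested) and *Itgb1*, *Itgb5*, *Itgb8*, *Itga5* and *Itga8* on day 14 (5 of 10, with 15.6% of all genes). They were *Itgb5*, *Itgb6* and *Itga8* on day 21 (11.7%), *Itga8* alone on day 28 (3.44%), *Itgb5* and *Itga8* on day 35 (3.77%) and *Itgb6* and *Itga8* on day 42 (7.58%).

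Comparing BLEO-IPF groups with each other separated the rise from the decline. Each group held different mice, and the part of mortality in these differences was not tested. From day 7 to day 14, 6 of the 10 genes increased, *Itgb1*, *Itgb3*, *Itgb5*, *Itgb8*, *Itga5* and *Itga11*, and none decreased, when 17% of all genes were DEGs, 9.48% upregulated and 7.55% downregulated. *Itgav* (0.31 ± 0.11, edgeR adjusted p = 0.0529) and *Itgb6* (0.36 ± 0.15, edgeR adjusted p = 0.0907) did not pass the test over this week, and *Itga1* and *Itga8* had log2FCs of 0.11 and -0.20, not significant. *Itgav* was close to the threshold. It became a DEG when any of 18 mice was left out, day 7 replicate 1, day 14 replicates 2, 5, 6, 10, 11 and 12, day 21 replicate 10, day 28 replicates 1, 5, 10 and 11, day 35 replicates 6 and 11 and day 42 replicates 1, 2, 4 and 7 (edgeR adjusted p from 0.018 to 0.198 over all mice left out in turn), and it was a DEG in DESeq2 (adjusted p = 0.0434). In a fit of the 2 groups alone *Itgb6* was a DEG (edgeR adjusted p = 0.0324) and *Itgb1* was not (edgeR adjusted p = 0.0731). Without replicate 8 of day 14, *Itgb6* became a DEG over this week (edgeR adjusted p = 0.0485) and *Itgb8* was no longer one (edgeR adjusted p = 0.0591), and *Itgb8* was also lost without replicate 3 of day 7. From day 14 to day 42, 9 of the 10 changed towards the CTRL level, when 34% of all genes were DEGs, 15.2% upregulated and 18.8% downregulated. *Itgav*, *Itgb1*, *Itgb3*, *Itgb5*, *Itgb8*, *Itga5* and *Itga11* decreased, and *Itga1* (0.41 ± 0.11) and *Itga8* increased. The call of *Itgb1*, at -0.20 ± 0.07, was lost without replicate 6 of day 42 (edgeR adjusted p = 0.0546).

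No weekly comparison after day 14 passed the test in these genes. In edgeR, 0 of the 10 genes were DEGs between days 14 and 21 (1.03% of all genes), days 21 and 28 (0.727%), days 28 and 35 (1.27%) or days 35 and 42 (0% of all genes). At an unadjusted p under 0.05 there were 4 genes between days 14 and 21, *Itgav*, *Itgb8*, *Itga1* and *Itga5*, and 2 between days 28 and 35, *Itgb1* and *Itgb6*. The other 2 intervals had 0, and DESeq2 also called 0 in all 4. The largest of these weekly differences were -0.45 for both *Itgb8* and *Itga5* between days 14 and 21. Leaving out replicate 10 of day 21 made that of *Itgb8* -0.54 (edgeR adjusted p = 0.0445).

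The spread between mice of a group was described without a test. The median coefficient of variation of the 10 genes was 11.4% in CTRL mice and 16.4%, 28.2%, 27.4%, 30.4%, 16.4% and 12.9% in the BLEO-IPF mice of days 7 to 42. It exceeded the CTRL value in 9 genes on day 14 and in all 10 on day 28. Some mice were at the extreme of their group in many genes, and CTRL replicate 4 was the highest CTRL mouse in 6 genes. Replicate 10 of day 21 was the highest mouse of its day in *Itgav*, *Itgb1*, *Itgb8*, *Itga5* and *Itga11*, and replicate 6 of day 35 in 6 genes. On day 14, replicate 11 was the lowest in 7 genes. Replicate 8 of that day was the highest in *Itgb1*, *Itgb8* and *Itga5* (1724, 14.4 and 446 CPM) and at the same time the lowest in *Itgb6* (51.6 CPM).

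Levels of different genes were compared per kilobase of merged exons, as mean ± SD over the CTRL mice. *Itgb1* stood first at 278 ± 10.2 CPM per kilobase, followed by *Itga8* (62.6 ± 3.21), *Itgb5* (44.1 ± 1.98), *Itga1* (22.3 ± 1.81) and *Itga5* (13.8 ± 2.02). *Itgav* (8.33 ± 0.51), *Itgb3* (6.65 ± 1.04) and *Itgb6* (5.61 ± 1.55) came next, and *Itga11* (0.39 ± 0.10) and *Itgb8* (0.36 ± 0.07) last. Neighbours in this order whose mice overlapped were *Itgav* and *Itgb3*, *Itgb3* and *Itgb6*, and *Itga11* and *Itgb8*. With the length of the longest protein-coding transcript instead, *Itgb6* came before *Itgb3* and *Itgb8* before *Itga11*. On day 14 the order per kilobase was *Itgb1* (342 ± 42.4), *Itgb5* (74.5 ± 14.6), *Itga5* (37.6 ± 23.3), *Itga8* (26.96 ± 8.18), *Itga1* (14.2 ± 3.69), *Itgav* (13.4 ± 3.80), *Itgb6* (13.1 ± 2.44), *Itgb3* (10.8 ± 3.02), *Itga11* (0.87 ± 0.44) and *Itgb8* (0.78 ± 0.27). Only *Itgb1* and *Itgb5*, and *Itgb3* and *Itga11*, were neighbours without overlap on that day. By the day 14 means *Itga5* stood before *Itga8*, but by the medians *Itga8* (28.4) stood before *Itga5* (26.997).

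The makeup of the β subunit messages was described as each gene's share of the summed level of the 5 β genes per kilobase. *Itgb1* made up 83.0 ± 0.97% in CTRL mice, 77.5 ± 2.93% on day 14 and 80.5 ± 1.91% on day 42. The share of *Itgb5* was 13.2 ± 0.59% in CTRL mice, 16.9 ± 2.69% on day 14 and 14.0 ± 1.64% on day 42. *Itgb6* had 1.67 ± 0.44% in CTRL mice, 3.53 ± 0.41% on day 21 and 3.25 ± 0.58% on day 42, with the lowest mouse of day 42 (2.78%) above the highest CTRL mouse (2.24%). *Itgb3* stayed between 1.67% and 2.41% and *Itgb8* between 0.11% and 0.17% in the group means. These shares depend on the exon lengths used and are given without a test.

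**Figure D4:**
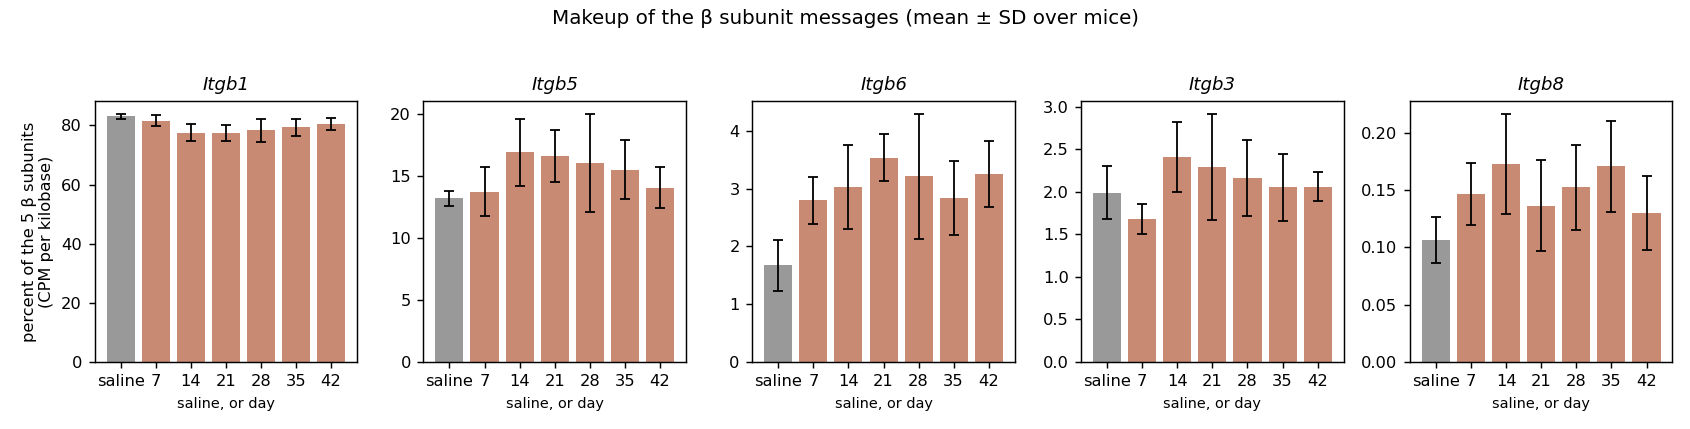
Share of each β subunit gene (y axis, percent of the summed CPM per kilobase of the 5 β genes, from 0, each panel with its own scale) by group (x axis: saline, then day after bleomycin). Bars are means and whiskers the SD over mice. The *Itgb6* share goes from 1.67% in saline to 3.53% on day 21 and is 3.25% on day 42.

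A ligand list of matrix proteins and latent TGFβ components, not all of them bound directly by these integrins, was mostly upregulated up to day 35. Of its 19 genes, 12, 15, 15, 13, 11 and 9 were upregulated at the 6 time points in order of day. Downregulated were 3, 3, 3, 4, 3 and 3. The shares of all genes were 32.4% and 29.9% for day 14, 13.7% and 11% for day 42. The median log2FC of the list was 1.06 for day 14 (0.008 over all genes) and 0.48 for day 42 (0.005 over all genes). *Spp1*, encoding osteopontin, had the highest log2FC of the list on day 14, 5.62 ± 0.55, and still 4.07 ± 0.53 on day 42. *Tnc* (tenascin C) was at 4.10 ± 0.40 and 2.15 ± 0.41 on these days, and *Fn1*, the fibronectin bound by α5β1, at 3.32 ± 0.36 and 1.15 ± 0.36. *Tgfb1*, whose latent product αvβ6 and αvβ8 activate, was upregulated by 0.53 ± 0.09 on day 14 and was 0.20 ± 0.10 on day 42, not significant. *Ltbp1*, which anchors latent TGFβ in the matrix, showed 0.51 ± 0.11 on day 14 and -0.07 ± 0.13, not significant, on day 42. Among the ligands that went down, *Vtn* (vitronectin) had a log2FC of -0.98 ± 0.13 on day 14 and -0.46 ± 0.15 on day 42, and *Npnt*, the nephronectin bound by α8β1, had -0.49 ± 0.14 on day 14 and -0.29 ± 0.16, not significant, on day 42. Of the 19 genes, *Col1a1*, *Col1a2* and *Col3a1* also stand in the fibroblast marker list used below, and *Postn* in the myofibroblast and smooth muscle list.

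Genes of the adhesion machinery that links integrins to actin were counted in the same way. Of 20 such genes, 5 were upregulated and 6 downregulated on day 14, when 32.4% and 29.9% of all genes were, and their median log2FC was -0.01. By day 28 the numbers were 2 and 11 (24.1% and 19.2% of all genes) and by day 42 they were 1 and 7 (13.7% and 11%), both with a median of -0.17. *Ptk2*, encoding focal adhesion kinase, was downregulated on each day, by -0.25 ± 0.06 on day 14 and -0.22 ± 0.06 on day 42. *Tln1* (talin), which activates integrins from inside the cell, had 0.01 ± 0.08 on day 14, not significant, and was downregulated on day 28 (-0.19 ± 0.08). *Ilk* was downregulated on day 28 (-0.14 ± 0.05), and *Fermt2*, encoding a kindlin, on day 21 (-0.19 ± 0.08).

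Other integrin subunits gave a comparison within the family. Of 7 further subunits that bind collagen, laminin or tenascin, 2 were upregulated and 1 downregulated on day 14 and 1 was upregulated on days 21, 28, 35 and 42. Of all genes, 62.4% were DEGs on day 14 and 24.7% on day 42, shares above those of the list. The list had medians of log2FC between -0.11 and 0.05 over the 6 days. The laminin receptor subunits *Itga3* and *Itga6* had log2FCs of 0.35 ± 0.11 and -0.23 ± 0.10 on day 14, both significant. *Itgb4*, *Itga9* and *Itga2* had 0.15, -0.00 and -0.02 on that day, none significant. On day 7, however, *Itgb4* was upregulated (0.39 ± 0.11) and *Itga2* downregulated (-0.26 ± 0.11). *Itga7*, a laminin-binding subunit known from muscle and named here after its values were seen, was the gene upregulated on all 6 days, by 1.43 ± 0.16 on day 14 and 1.61 ± 0.17 on day 42. Among 10 leukocyte and platelet subunits, of which 9 were tested, 4 were upregulated and 3 downregulated on day 14 and 3 were upregulated and none downregulated on day 42, beside the same shares of all genes. *Itgb2*, the common β subunit of leukocyte integrins, had 1.53 ± 0.15 on day 14 and 1.28 ± 0.16 on day 42, and *Itgam*, its partner on myeloid cells, 1.68 ± 0.21 and, not significant, 0.43 ± 0.24. *Itga2b*, the platelet partner of β3, was downregulated on day 14 (-0.51 ± 0.17) and is also 1 of the platelet markers above.

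**Figure D5:**
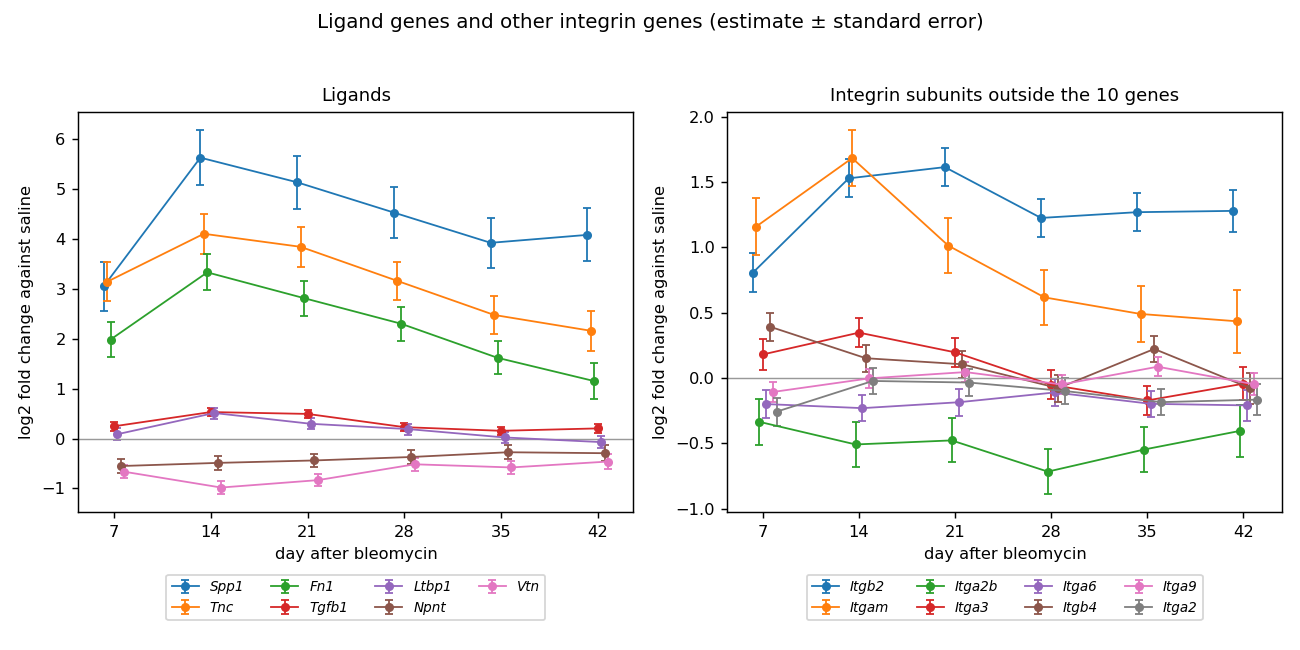
Fitted log2 fold change against saline (y axis) by day after bleomycin (x axis). Shown are 7 genes of the ligand list (left) and 8 integrin subunit genes outside the 10 members (right). Points are estimates and bars 1 SE, shifted sideways for visibility. *Spp1*, *Tnc* and *Fn1* lie above the rest of the plotted genes of that list on each day, and *Vtn* and *Npnt* lie below 0.

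The genes most like each member in level across all 75 mice were found by Pearson's r of log2 CPM, as a description that includes the differences between days. *Itga5* was closest to *Furin*, which encodes a proprotein convertase (r = 0.948), and to *Slc39a14*, a metal transporter gene (r = 0.946). *Itgb5* was closest to *Col16a1* (r = 0.930) and *Serpine2* (r = 0.925), *Itga8* to *Abi3bp* (r = 0.929) and *Synm* (r = 0.928), and *Itga1* to *Pde5a* (r = 0.929) and *Smarca2* (r = 0.908). *Itgav* came nearest to *Bmp2k* (r = 0.916) and *Il1r1* (r = 0.914), *Itgb6* to *Tgfb2* (r = 0.872) and *Lpcat3* (r = 0.859), and *Itgb3* to *Pdgfrb* (r = 0.869), a pericyte and fibroblast receptor, and *Uaca* (r = 0.858). *Itgb1* was nearest to *Cald1* (r = 0.869) and *Ssr3* (r = 0.864), *Itga11* to *Fbln2* (r = 0.826) and *Scube1* (r = 0.821), and *Itgb8* to *Tlr7* (r = 0.802) and *Il13ra1* (r = 0.797).

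Markers of lung cell types were counted in the same groups, some lists mostly upregulated and others mostly downregulated. Of all genes tested, 32.4% were upregulated and 29.9% downregulated on day 14, and 24.1% and 19.2% on day 28. Upregulated genes made up 24.8% of all genes on day 7 and 13.7% on day 42. The summed level of 8 fibroblast markers, of which 6 were upregulated and 1 downregulated on day 14, was 6268 to 16157 CPM on that day, against 2430 to 3207 in CTRL mice and 2855 to 4566 on day 42. All 8 had counts in every mouse. Of 8 macrophage and monocyte markers, 7 were upregulated on day 14, with a sum of 619.9 to 1180.2 CPM against 327 to 392 in CTRL mice. All 8 markers of transitional alveolar epithelial cells were upregulated on day 7 and 6 on day 42, with sums of 1410 to 2622 and 1047 to 1454 CPM against 840.0 to 1082 in CTRL mice. Of 7 markers of AT2 cells, the surfactant-producing alveolar cells, 6 were downregulated on day 14, and their sum ran from 6220 to 23130 CPM against 22237 to 27122 in CTRL mice. Of 8 endothelial markers, 6 were downregulated and 1 upregulated on day 14, with 2677 to 4294 CPM against 3909 to 5402. All 6 airway epithelial markers were downregulated on days 14 and 28, with 2441 to 16179 CPM on day 14 (median 7240) against 20949 to 28312 (median 26500) in CTRL mice. Of 6 pericyte markers, 4 were upregulated on day 14, with 442 to 841 CPM against 433 to 525. Among 7 myofibroblast and smooth muscle markers 4 were upregulated and 2 downregulated on day 14, among 7 AT1 markers 1 and 3, and among 8 lymphocyte markers 0 and 5. Of the 4 thymus markers tested, 3 were downregulated on day 14 and 0 on day 28. On day 28, 5 of 6 cardiac and all 3 tested skeletal muscle markers were upregulated. The highest sums of both lists, 2408 and 625 CPM, were those of replicate 10 of that day. The day 28 medians were 134 CPM for cardiac and 4.76 CPM for skeletal markers, against 118 and 5.65 CPM in CTRL mice. The part of these cell types in the differences of the integrin genes was not tested.

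Total counts per library were 9240291 to 14665247, and no pair of libraries within a group agreed within sampling noise. Of the libraries farthest from their group over all genes, replicate 8 of day 14 and replicates 1, 5 and 10 of day 28, the last also had the highest cardiac (2408 CPM) and skeletal muscle (625 CPM) markers. Without these 4 libraries, *Itgb1*, *Itgb3*, *Itga1* and *Itga11* were no longer DEGs on day 28 (edgeR adjusted p from 0.0578 to 0.234), leaving 6 of 10, and *Itgb1* (edgeR adjusted p = 0.0525) was no longer one between day 42 and day 14. Without them *Itgb8* also lost and *Itgb6* gained a call between day 14 and day 7. The smaller differences were close to the threshold on days 28 and 35. Leaving out single mice raised the edgeR adjusted p of *Itgb1* on day 28 to at most 0.105 and ended its call for 16 mice, CTRL replicates 2, 3, 4, 7 and 9, day 28 replicates 1, 2, 5, 6 and 7 and day 42 replicates 1, 2, 4, 5, 6 and 7. For *Itgb3* on day 28 the call ended for 7 mice, CTRL replicates 6, 7, 8 and 10 and day 28 replicates 1, 5 and 6 (highest edgeR adjusted p 0.128). For *Itga11* on day 28 it ended for the same CTRL mice and for day 28 replicates 1, 4 and 5 (highest edgeR adjusted p 0.109). On day 35, *Itgb5* lost its call without CTRL replicate 5 or without day 35 replicate 5, 6 or 7 (highest edgeR adjusted p 0.0671). *Itgav* on day 35 lost it for 21 mice, CTRL replicates 1, 2, 3, 5, 6, 7, 9 and 10, day 35 replicates 1, 2, 5, 6, 7, 8 and 9 and day 42 replicates 1, 2, 4, 5, 6 and 7 (highest edgeR adjusted p 0.0935).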

How the data were processed

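RNA sequencing of lung from 75 mice was analysed. The authors made directional libraries, read them from a single end, mapped the reads with STAR 2.7.0f to GRCm38 (annotation: Ensembl release 96) and deposited raw counts per gene. The counting program and its use of strand are not given in the sources used here. From these counts, edgeR 4.0.16 in R 4.3.3 fitted TMM factors and 1 mean per group over all mice, keeping genes by filterByExpr (minimum count 10). The quasi-likelihood test, two-sided, was adjusted by the Benjamini-Hochberg method over 16221 genes at 0.05. CPM values carry the TMM factors, and log2 CPM used a prior count of 2. The steps were tested on simulated data. Depth was 9240291 to 14665247 counts per library, and Python 3.11.15 served for tables and plots. The labels give no batch. Promoter sequences came from RefSeq.

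The 10 members and all gene and marker lists were chosen with earlier results of these data known. Genes outside the 10 were named from fixed names in those lists, plus the 2 most correlated genes per member with a mean log2 CPM above 1. *Itga7* was named after its values were seen. Alternatives were DESeq2 1.42.0, library size or upper quartile scaling, no filter or a minimum of 10 counts in each mouse, a fit of just the 2 groups, the replicate block, replicates 1 to 7, an absolute log2FC of at least 0.5 and each mouse left out. Leaving out libraries with muscle transcripts or far from their group, and transcript length, were added after seeing the data.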

Additional observations from a re-analysis of the deposited data

Results flagged for a closer look

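Of 30 sets of CPM values, the 10 genes in the CTRL, day 7 and day 42 mice, 1 had a value far from the others. *Itgb8* was 2.31 CPM in CTRL replicate 2, where the next CTRL mouse had 3.50 CPM, a gap of 0.494 of the whole range. Chance gives such a gap in about 1 of 20 sets, and groups of 12 mice were not examined for it. Without this mouse *Itgb8* remained a DEG on day 14 (edgeR adjusted p = 6.22e-07).

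In 15 cases the difference from CTRL changed between days, by a direct edgeR test of the later against the earlier day. From day 7 to day 14 the log2FC was 0.20 for *Itgb1*, 0.83 for *Itgb3*, 0.59 for *Itgb5*, 0.54 for *Itgb8*, 0.83 for *Itga5* and 1.09 for *Itga11*. Between day 14 and day 42 it was -0.45 for *Itgav*, -0.20 for *Itgb1*, -0.50 for *Itgb3*, -0.52 for *Itgb5*, -0.69 for *Itgb8*, -1.20 for *Itga5* and -0.97 for *Itga11*. Over the same interval it was 0.41 for *Itga1* and 0.50 for *Itga8*.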

How the results depend on the processing

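In the 6 comparisons with CTRL, day 42 against day 14 and day 14 against day 7, 47 of 59 calls held in all 85 refits, including each call on day 14. The number of members called moved by more than 1.5 times in 8 cases. On day 28 it was 10 in the main analysis and 6 without the 4 farthest libraries, and 6 with an absolute log2FC of at least 0.5. That threshold also left 3 of 6 on day 35 and 5 of 9 between day 42 and day 14. On day 42 it was 2, and 7 in a fit of the 2 groups compared. Between days 35 and 28 it was 0, but 1 with replicates 1 to 7 (*Itgb1*, log2FC -0.25) and 1 without the 3 libraries highest in cardiac muscle markers, replicates 8, 10 and 11 of day 28 (*Itgb6*, -0.52). Leaving out 1 mouse gave 0 to 1 calls between days 21 and 14, *Itga1* without replicate 5 of day 14 and *Itgb8* without replicate 10 of day 21. With no filter on low counts, *Itgb1*, *Itgb3* and *Itga11* on day 28, *Itgav* and *Itgb5* on day 35 and *Itgb1* between day 42 and day 14 were no longer called. With replicates 1 to 7, *Itga5* on day 7, *Itga11* on day 21 and *Itga1* on days 28 and 35 were no longer called. That setting also ended the call of *Itgb5* on day 35. Between day 14 and day 7 it ended the call of *Itgb8* and added *Itgav*. The cause of these shifts was not tested, except that the log2FC threshold by construction removes small differences.

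Signs turned in values near 0 that were not called. *Itga11* on day 7 was -0.004 and *Itgb1* on day 35 was -0.005 with replicates 1 to 7, and leaving out 1 mouse gave -0.012 to 0.037 for *Itgb1* on day 35. The median correlation of deviations was 0.006 for 204 pairs of mice with the same replicate number, 63 of them over 0.1. For 2196 other pairs it was 0.002, with 556 of them over 0.1. These values cannot decide whether mice with the same number have anything else in common, and the labels do not say. With the replicate block, 8 members instead of 6 were called from day 7 to day 14, adding *Itgav* and *Itgb6*, and no other member call of these 8 comparisons changed. The counts of *Itgb8* (29 to 172) and *Itga11* (11 to 100) per library limit the precision of both genes.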
